A study of Mus musculus with 6 samples.

Results

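The MEF2 transcription factors and the class IIa histone deacetylases that bind them were examined in C2C12 cells, an established mouse myoblast line, transfected either with siRNA-MEG3, directed at the lncRNA Meg3 (3 arrays), or with the negative control siRNA-NC (3 arrays). Members were chosen by name and not by response: all probes outside the control spots whose RefSeq accession belongs to Mef2a, Mef2b, Mef2c, Mef2d, Hdac4, Hdac5, Hdac7 or Hdac9. This gave 8 of 20659 genes named on the array, measured by 10 of 39429 probes, 6 for MEF2 factors and 4 for deacetylases, with 2 probes each for Mef2a and Mef2d. Per the labels, both groups were grown in medium with fetal bovine serum, and the labels call the arrays of a group biological replicates. The labels do not say how long after transfection RNA was taken.

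MEF2 proteins bind an A/T-rich DNA motif and, together with myogenic factors such as MyoD and myogenin, activate genes of muscle differentiation. Class IIa deacetylases bind the same MEF2 domain that contacts DNA and keep target genes silent. Kinases such as the CaM kinases and protein kinase D phosphorylate the deacetylases, 14-3-3 proteins then hold them in the cytoplasm, and MEF2 is released. The Hdac9 gene is itself known as a target of MEF2 in muscle.

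Of the 8 genes only Hdac9 passed the test, 6.21-fold higher with siRNA-MEG3. It is shown with its promoter windows for that reason, next to the windows of Mef2a and Hdac5, the member genes whose windows hold the MEF2 consensus motif. RefSeq (GRCm38.p6) gave 14 windows for the 8 genes, each from 250 bases before to 50 bases after an annotated start. In the Hdac9 windows the capitals mark the E-box CANNTG, the motif of MyoD and myogenin, which reads the same on both strands. Positions are counted from the annotated start, whose first base is 1. The upstream window (chr12:34917046-34917345, minus strand) holds E-boxes from bases -89 and -76. The window at the internal start (chr12:34528840-34529139, minus strand) holds them from bases -183, -52 and -46, the last 2 joined without a gap.
Hdac9, upstream start: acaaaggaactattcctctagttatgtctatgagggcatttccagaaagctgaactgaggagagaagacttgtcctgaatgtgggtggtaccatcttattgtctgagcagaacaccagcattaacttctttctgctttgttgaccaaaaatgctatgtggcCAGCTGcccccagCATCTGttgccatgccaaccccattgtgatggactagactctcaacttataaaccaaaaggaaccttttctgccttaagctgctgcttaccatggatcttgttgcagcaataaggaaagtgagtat
Hdac9, internal start: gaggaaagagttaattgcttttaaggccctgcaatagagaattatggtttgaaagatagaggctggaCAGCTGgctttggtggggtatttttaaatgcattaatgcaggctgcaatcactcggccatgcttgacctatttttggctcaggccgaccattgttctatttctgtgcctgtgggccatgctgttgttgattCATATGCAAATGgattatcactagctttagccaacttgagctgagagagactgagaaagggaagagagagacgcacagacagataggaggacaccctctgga

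Matches to CANNTG are common: 72.3% of 32851 promoter windows of the same length hold at least 1, as do 8 of the 14 member windows. The form CAGCTG, present once in each Hdac9 window, occurs in 16.3% of all windows. The MEF2 consensus of 10 bases, searched on both strands, occurs in 3.19% of windows and in 2 of the 14 member windows, those of Mef2a and Hdac5. It is in capitals in the 30-base stretches that follow, and starts at base -2 in the Mef2a window (chr7:67372809-67373108, minus strand) and at base -20 in the Hdac5 window (chr11:102230123-102230422, minus strand).
Mef2a: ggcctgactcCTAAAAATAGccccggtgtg
Hdac5: gggtctgagcCTATTTTTAGctcggggtcg

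These matches describe letters only, and the arrays do not tell which start was used. The array holds 1 Hdac9 probe, so its 2 starts were not measured apart. Neither Mef2a nor Hdac5 passed the test.

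The following facts hold for all values given here. Arrays are single-colour Agilent scans, and a value is the background-subtracted spot signal divided by the 75th percentile of its own array, called the relative signal. It compares 1 probe across arrays, never different probes. On siRNA-MEG3 arrays 1 and 3 the same individual spots of a probe read high or low (r = 0.98 over 227 repeated probes), which fits a rescan of 1 array. The difference of siRNA-NC arrays 1 and 3 stayed within their spot noise (variance ratio of probes to spots 1.04). For the tests each of these pairs became 1 averaged sample, so n is 2 samples in either group. The same variance ratio was 159 and 153 for siRNA-NC array 2 against arrays 1 and 3. It was 1.33 and 1.45 for siRNA-MEG3 array 2 against arrays 1 and 3, and 2.10 between siRNA-MEG3 arrays 1 and 3. The SD of log2 differences between probes was 0.14 for siRNA-MEG3 array 2 against either array, and 0.020 between siRNA-MEG3 arrays 1 and 3. For siRNA-NC array 2 against either array it was 0.56. The siRNA-MEG3 samples thus differed little beside the siRNA-NC samples and may not be separate. With the 3 siRNA-MEG3 arrays counted as 1 sample, the log2 fold change of Hdac9 was 2.63. In that fit all member probes had the same SE (0.53), so the spread of Hdac9 itself was not used and no p-value is given. Whether the remaining samples came from separate cultures cannot be read from the arrays, so the p-values rest on spread among these samples that may be technical. The siRNA-NC arrays were read in 1 scan and the siRNA-MEG3 arrays in 2 others, so scan and group cannot be told apart. From 62.8 to 69.3% of spots on siRNA-MEG3 arrays were well above background, against 70.1 to 75.2% on siRNA-NC arrays, and no spot was saturated. Of the 3 Meg3 probes, 0 were well above background anywhere with siRNA-MEG3 and 1 was with siRNA-NC, on 1 array, so the knockdown was not measured.

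All 10 member probes are shown by array in the plot of relative signals. Of these, 9 were well above background on every array of at least 1 group and entered the test, and the Mef2c probe did not. A probe was called at a limma adjusted p below 0.05, with Benjamini-Hochberg adjustment over all 26345 probes tested. By that rule 1 member probe rose, against 0.994% of all probes tested, and none fell, against 0.361%. In either direction 1.36% of probes were called. At an unadjusted limma p below 0.05, 1 member probe was higher, against 11.6% of all probes tested, and 2 were lower, against 7.57%. Of these 2, the dimmer Mef2d probe entered the test through siRNA-NC alone. The median log2 fold change was -0.29 over the 9 member probes and 0.048 over all probes. That member median counts both probes of Mef2a and of Mef2d. It also includes the Mef2b probe and the dimmer Mef2d probe, which both entered the test through siRNA-NC alone. Such entry favours a lower reading with siRNA-MEG3, so no conclusion is drawn from this median.

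**Figure D1:**
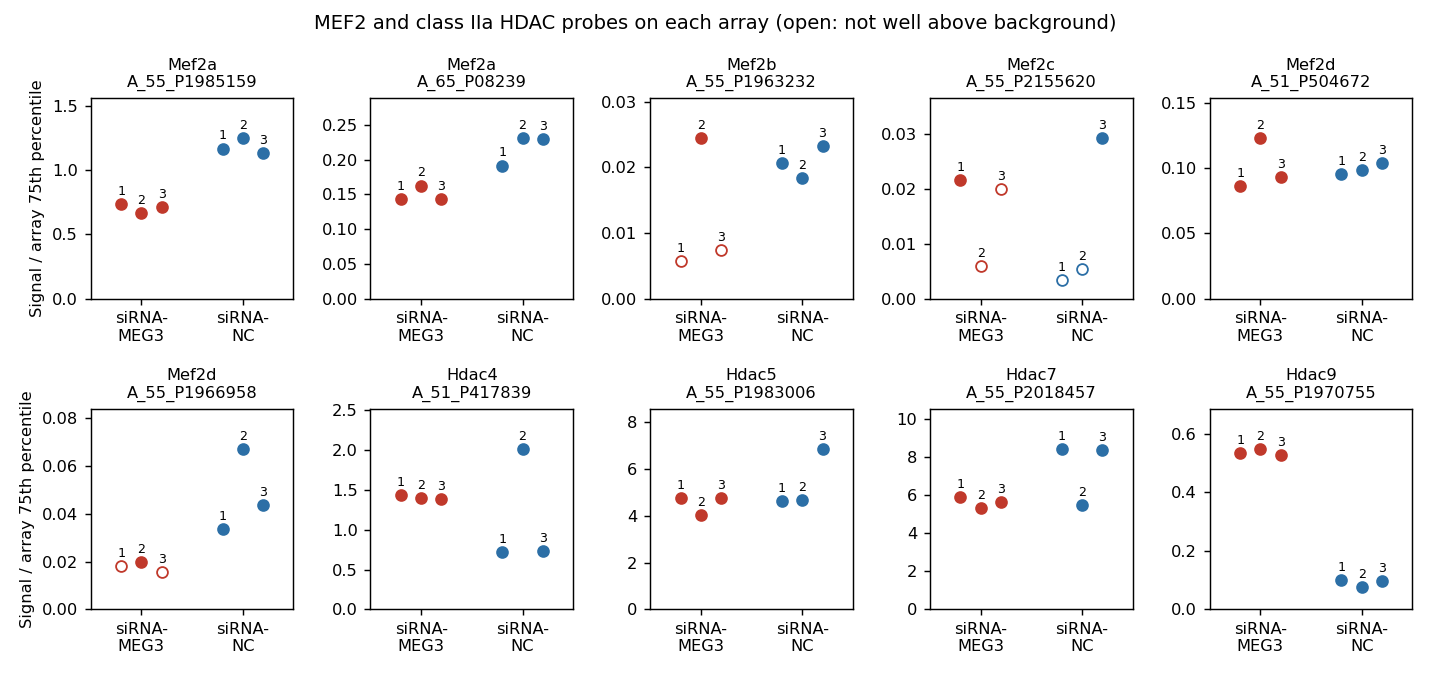
Relative signal (spot signal over the 75th percentile of the array, linear axis from 0) of the 10 member probes on each array, siRNA-MEG3 in red and siRNA-NC in blue, numbered by array, with open points where the spot was not well above background. Hdac9 lies between 0.527 and 0.549 on the siRNA-MEG3 arrays and between 0.0770 and 0.100 on the siRNA-NC arrays, while Hdac4 is split by siRNA-NC array 2.

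Mef2a encodes a MEF2 factor of muscle and heart that also acts in dividing cells. Its brighter probe, A_55_P1985159, had relative signals of 0.736, 0.664 and 0.714 on siRNA-MEG3 arrays 1 to 3, against 1.17, 1.25 and 1.14 on siRNA-NC arrays 1 to 3. Its other probe, A_65_P08239, had 0.143, 0.163 and 0.143 with siRNA-MEG3, against 0.191, 0.231 and 0.230 with siRNA-NC. On both probes every siRNA-MEG3 array lay below every siRNA-NC array. The log2 fold changes were -0.79 ± 0.21 and -0.53 ± 0.22 (SE, n = 2 samples per group), and neither passed over all probes (limma adjusted p = 0.176 and 0.299). The 95% intervals ran from -1.36 to -0.22 and from -1.12 to 0.059.

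Groups that do not overlap were frequent on these arrays. Of 26170 probes measured on all 6 arrays, 18.4% were lower and 28.8% higher with siRNA-MEG3 without overlap. Among the 9 member probes, 3 were lower without overlap, both of Mef2a and the dimmer one of Mef2d, and 1 was higher, that of Hdac9. The dimmer Mef2d probe entered the test through siRNA-NC alone, which favours a lower reading with siRNA-MEG3, so its place in this count is no separate support. In bulk RNA of this kind, fewer cells that express a gene and less RNA per cell cannot be told apart.

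Mef2d, a MEF2 factor found in many tissues and in dividing myoblasts, gave probes that disagreed. The brighter probe, A_51_P504672, read 0.0866, 0.123 and 0.0931 with siRNA-MEG3, against 0.0956, 0.0989 and 0.104 with siRNA-NC. Here the groups overlapped, with siRNA-MEG3 array 2 the highest of the 6 arrays. Its log2 fold change was 0.081 ± 0.26 (limma adjusted p = 0.905, 95% interval -0.61 to 0.77), and the sign turned under quantile normalization (-0.066) and in the authors' value table (-0.11). The dimmer probe, A_55_P1966958, read 0.0182, 0.0198 and 0.0157 with siRNA-MEG3, against 0.0335, 0.0673 and 0.0436 with siRNA-NC. The groups did not overlap, but only siRNA-MEG3 array 2 was well above background in its group. The log2 fold change of -1.47 ± 0.35 did not pass (limma adjusted p = 0.155), and with normexp background correction it was -0.39.

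Mef2b and Mef2c were at or near background. Mef2b, the most divergent member of the family, had processed signals before scaling of 6.85, 31.1 and 8.67 on siRNA-MEG3 arrays 1 to 3, against 26.5, 41.7 and 28.4 on siRNA-NC arrays 1 to 3. It was well above background on 1 siRNA-MEG3 array and on all siRNA-NC arrays. The spots on siRNA-MEG3 arrays 1 and 3 lay in dark patches, blocks in which more than 5% of spots read over 4-fold below siRNA-NC. The log2 fold change of -0.67 ± 0.69 did not pass (limma adjusted p = 0.671), and it was 0.26 without the spots in dark patches.

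Mef2c, the factor most closely tied to skeletal muscle differentiation and myofibre genes, had 1 probe by this rule. Its processed signals before scaling were 25.9, 7.57 and 23.2 with siRNA-MEG3, against 4.29, 12.4 and 35.6 with siRNA-NC. Well above background were array 1 of the siRNA-MEG3 group and array 3 of the siRNA-NC group. Arrays counted as 1 sample disagreed (4.29 and 35.6 on siRNA-NC arrays 1 and 3), so no fold change is given.

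Among the class IIa deacetylases Hdac9 stood at 0.533, 0.549 and 0.527 on siRNA-MEG3 arrays 1 to 3, against 0.100, 0.0770 and 0.0959 on siRNA-NC arrays 1 to 3. The probe was well above background on all 6 arrays, and the groups lay far apart. Hdac9 encodes both a full deacetylase and a short form without the catalytic domain, known as MITR, which still binds MEF2. The log2 fold change was 2.63 ± 0.24 (SE, n = 2 samples per group, limma adjusted p = 0.0323), a 6.21-fold increase with a 95% interval from 4.0-fold to 9.65-fold. Before scaling, the processed signals were 639, 698 and 615 with siRNA-MEG3, against 129, 174 and 117 with siRNA-NC, so the groups were separate without any scaling. By size of increase Hdac9 ranked 180 of the 262 probes called higher, whose median log2 fold change was 3.21.

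The Hdac9 spot lay in a dark patch on siRNA-MEG3 arrays 1 and 3 and outside one on array 2, where its relative signal was close to the other values of its group. Without the spots in dark patches, which leaves array 2 as the lone siRNA-MEG3 sample, the log2 fold change was 2.64 and did not pass (limma adjusted p = 0.0605). Nor did it pass without siRNA-NC array 2 (2.46, adjusted p = 0.124, a lone siRNA-NC sample) or with dim probes kept in the test (2.63, adjusted p = 0.0881).

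Hdac4 represses MEF2 in myoblasts and mediates the response of muscle to denervation. It had relative signals of 1.43, 1.40 and 1.38 on the siRNA-MEG3 arrays, against 0.720, 2.02 and 0.730 on the siRNA-NC arrays. The siRNA-MEG3 arrays lay close together, between siRNA-NC array 2 above them and siRNA-NC arrays 1 and 3 below. The log2 fold change was 0.22 ± 0.54 (limma adjusted p = 0.878), with a 95% interval from -1.25 to 1.68. It was 0.95 without siRNA-NC array 2 (adjusted p = 0.124), so this 1 array sets its size.

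Hdac5, a MEF2 repressor whose export from the nucleus accompanies myoblast differentiation, had 4.76, 4.01 and 4.74 with siRNA-MEG3, against 4.64, 4.66 and 6.85 with siRNA-NC. The groups overlapped, and siRNA-NC array 3 stood above the other 5 arrays, also above array 1 with which it was averaged. The log2 fold change was -0.23 ± 0.24 (limma adjusted p = 0.672, 95% interval -0.87 to 0.41). It was -0.091 without siRNA-NC array 3, -0.11 without siRNA-MEG3 array 2 and -0.37 without siRNA-NC array 1 or array 2, so its size depends on single arrays.

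Hdac7, best known from endothelial cells and thymocytes and also a MEF2 partner in muscle, had 5.90, 5.33 and 5.65 with siRNA-MEG3, against 8.45, 5.47 and 8.38 with siRNA-NC. Here siRNA-NC array 2 fell among the siRNA-MEG3 arrays while siRNA-NC arrays 1 and 3 lay above. The log2 fold change was -0.29 ± 0.30 (limma adjusted p = 0.668, 95% interval -1.09 to 0.51), and -0.60 without siRNA-NC array 2. The intervals of Hdac4, Hdac5 and Hdac7 leave room for differences in either direction.

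**Figure D2:**
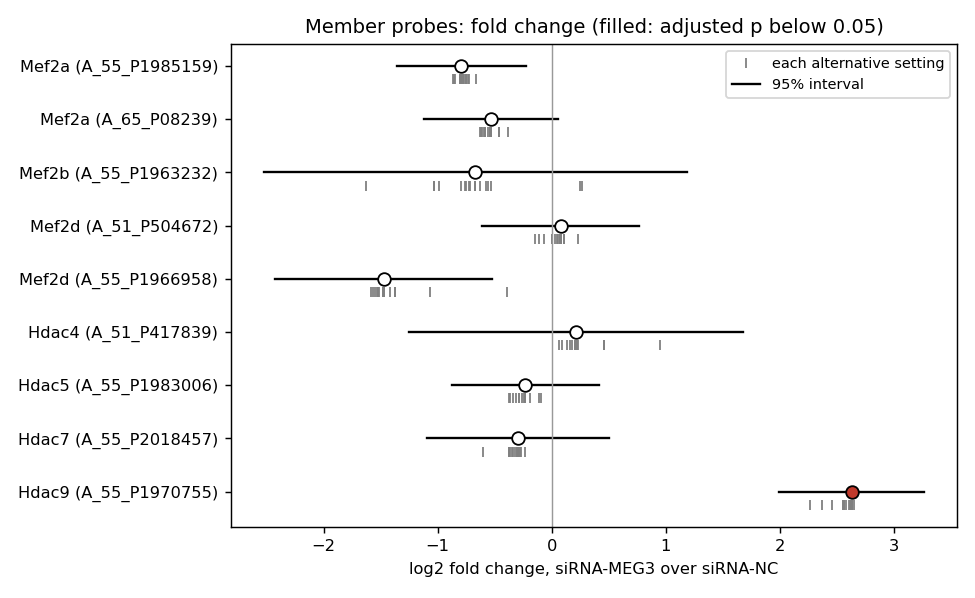
Log2 fold change (siRNA-MEG3 over siRNA-NC) of the 9 member probes tested, with the 95% interval as a line, grey ticks for the alternative settings and a filled point where the limma adjusted p was below 0.05. Hdac9 at 2.63 is the filled point, its ticks run from 2.26 to 2.65, and the ticks of Mef2b and of the brighter Mef2d probe lie on both sides of 0.

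The unequal change of the members was also read within arrays, where the scaling between arrays cancels. The ratio of the Hdac9 probe to each of the other deacetylase probes was higher in siRNA-MEG3 arrays relative to siRNA-NC arrays, by log2 2.42 against Hdac4, 2.87 against Hdac5 and 2.93 against Hdac7. Against the brighter Mef2a probe it was higher by 3.42. In each of these 4 ratios the arrays of the groups did not overlap. With 2 samples per group the two-sided exact permutation p was 0.333 for each, the smallest this design allows, so an exact test at 0.05 could not pass. The ratio of Hdac7 to Hdac5 differed by -0.059 between groups that overlapped (exact permutation p = 1). These 6 ratios, with that of Hdac5 to Mef2a (0.56, exact permutation p = 0.333), were picked after the values were seen.

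**Figure D3:**
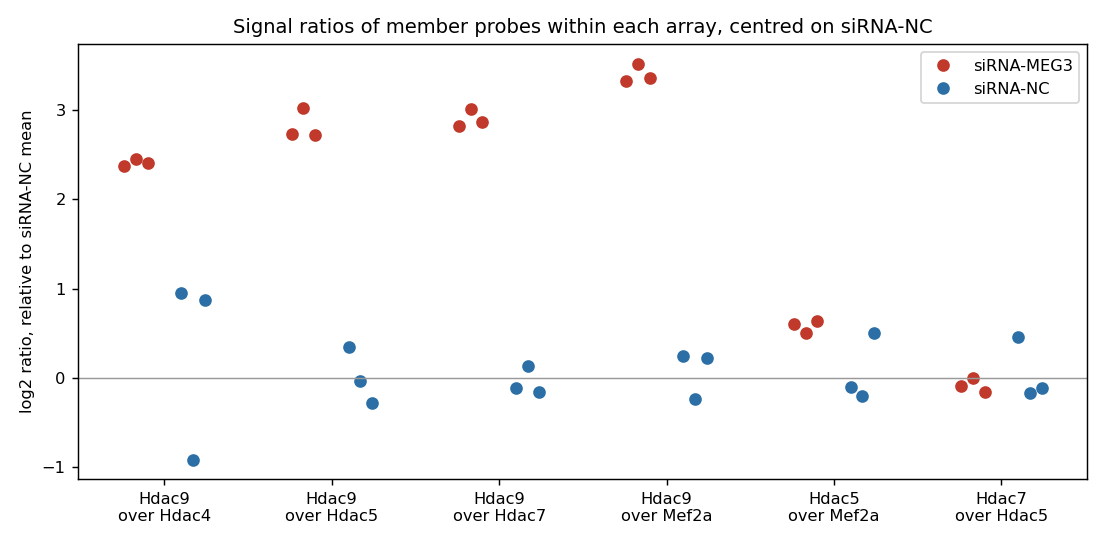
Log2 ratio of 2 member probes within each array, relative to the mean of the siRNA-NC samples, with siRNA-MEG3 in red to the left of siRNA-NC in blue. Hdac9 over Hdac7 lies between 2.82 and 3.01 on the siRNA-MEG3 arrays and between -0.16 and 0.14 on the siRNA-NC arrays, whereas Hdac7 over Hdac5 overlaps.

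Genes around the members were grouped into 6 lists by textbook role, with the brightest tested probe standing for a gene. Of 22054 genes tested so, unnamed accessions included, 1.02% were called higher and 0.381% lower (1.41% in either direction), with a median log2 fold change of 0.056. Across the lists 75 genes were tested, 7 rose and none fell. All 7 were known MEF2 targets.

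Of the 20 MEF2 target genes of muscle, 7 rose, 13 did not pass and none fell. The median log2 fold change was 1.62, and 15 of the 20 values were positive and 5 negative. Without overlap of the arrays, 14 were higher and 2 lower, beside 28.8% and 18.4% of all probes. Smyd1, lower without overlap, stood at -0.89 ± 0.26 (limma adjusted p = 0.191), with -0.63 on its other probe. Myoglobin (Mb), the oxygen store of muscle, had relative signals of 1.20, 1.13 and 1.18 with siRNA-MEG3, against 0.0530, 0.0561 and 0.0465 with siRNA-NC. Its log2 fold change was 4.45 ± 0.21 (limma adjusted p = 0.0187). Myog, the gene of myogenin, read 2.40, 2.36 and 2.36 against 0.193, 0.237 and 0.196 in siRNA-NC, a log2 fold change of 3.46 ± 0.22 (limma adjusted p = 0.0232). Lmod3, which nucleates actin in the sarcomere, rose by 4.03 ± 0.31 (limma adjusted p = 0.0254). Srpk3, a muscle kinase of splicing factors, was not well above background on any siRNA-NC array and entered the test through siRNA-MEG3 alone. Its place among the 7 that rose (limma adjusted p = 0.0232) rests on a fitted value that uses those dim siRNA-NC signals. As a bound, to which that p does not belong, it was at least 8.79-fold higher. That bound sets siRNA-NC at the higher of its own signal and the lowest signal well above background on each array. Xirp2, another of the 7 (limma adjusted p = 0.0475), also owes its entry to siRNA-MEG3 alone. Only 2 siRNA-NC arrays cleared background for it. Entry by that route favours a higher reading with siRNA-MEG3, for Srpk3 as for Xirp2.

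Markers of differentiation moved with Hdac9. Of 9 tested markers of differentiating myocytes or myotubes, 6 rose, none fell and 3 did not pass, and the median log2 fold change was 3.46. The summed relative signal of the 10 markers on the array ranged from 56.5 to 62.2 with siRNA-MEG3, against 7.56 to 8.96 with siRNA-NC, and none of the 10 was below background on every array. Such sums are set mostly by the brightest probes and do not weigh the markers of a list equally. Their part in the Hdac9 result was not tested, and 2 of the target genes are also among these markers. None of the 8 tested myoblast markers passed (median 0.44, summed signal 52.4 to 53.6 with siRNA-MEG3, against 34.3 to 38.5 with siRNA-NC), and all 8 were well above background on every siRNA-NC array. Their values went both ways, 5 positive and 3 negative. Myf5 stood at -2.87 ± 0.41, against 2.29 ± 0.43 for Myod1 and 1.41 ± 0.24 for Cdh15 (limma adjusted p = 0.0729, 0.113 and 0.0954). Myf5 is too dim to show in the sum, in which Vcam1 (22.9 to 23.3 with siRNA-MEG3) and Itga7 (18.6 to 19.6) weigh most. Of 20 tested markers of osteoblasts, adipocytes, endothelial cells, macrophages and neurons, 1 passed, the neuron marker Tubb3 at 1.96 ± 0.21 (limma adjusted p = 0.0465). Another of the 4 neuron markers, Snap25, stood at -1.65 ± 0.26 (limma adjusted p = 0.0843), and the summed signal of that list was 3.13 to 3.42 with siRNA-MEG3, against 3.12 to 3.39 with siRNA-NC. The summed signal of the 6 adipocyte markers was 13.2 to 14.1 with siRNA-MEG3, against 4.67 to 5.18 with siRNA-NC. Of that sum Lpl alone gave 11.3 to 12.1 with siRNA-MEG3, against 2.93 to 3.38 with siRNA-NC. Among these markers Lpl stood at 1.88 ± 0.22, just short of the threshold (limma adjusted p = 0.05001), and Adipoq cleared background on 0 of 3 arrays with siRNA-MEG3, against 3 of 3 with siRNA-NC. The marker genes named in this paragraph, too, were picked for naming once their values were known. The sums of the osteoblast markers were 60.3 to 70.2 with siRNA-MEG3, against 54.4 to 55.3 with siRNA-NC. Spp1 alone gave 60.2 to 70.0 with siRNA-MEG3, against 54.3 to 55.2 with siRNA-NC. Those of the endothelial markers were 0.942 to 1.32 with siRNA-MEG3, against 0.893 to 0.951 with siRNA-NC, and those of the macrophage markers 0.602 to 0.631 with siRNA-MEG3, against 0.350 to 0.465 with siRNA-NC. The part of these markers in the Hdac9 result was not tested.

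The list of kinases that act on class IIa deacetylases, directly or through other kinases, had 18 tested genes. None passed (median log2 fold change 0.12, 12 positive and 6 negative). The smallest p belonged to Prkaa2, a catalytic subunit of AMP-activated kinase, at 1.47 ± 0.31 (limma adjusted p = 0.132). The calmodulin-dependent kinase genes Camk2b and Camk4 stood at 1.24 ± 0.30 and 1.42 ± 0.38 (limma adjusted p = 0.154 and 0.177). Sik1, a salt-inducible kinase, stood at 0.81 ± 0.22 (limma adjusted p = 0.178). Of the 18 kinases, 6 were higher without overlap of the arrays, these 4 among them, beside 28.8% of all probes. Lower without overlap were 2, beside 18.4% of all probes: Camk1 at -0.94 ± 0.57 and Stk11 at -0.64 ± 0.38 (limma adjusted p = 0.457 and 0.458). Both were picked for naming once their values were known. The 14-3-3 genes, whose proteins bind the phosphorylated deacetylases, had 6 tested members and no call (median 0.32). Ywhag stood at 0.70 ± 0.41, Ywhah at 0.47 ± 0.31, Ywhab at 0.43 ± 0.27 and Ywhaq at 0.20 ± 0.24 (limma adjusted p from 0.444 to 0.723).

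The MAP kinase and calcineurin genes, which act on MEF2 by phosphorylation and dephosphorylation, had 13 tested members, none of which passed (median -0.20). Mapk12 (p38 gamma, the muscle form) stood at 0.51 ± 0.20 and Mapk11 (p38 beta) at 0.61 ± 0.25. Rcan1, a calcineurin inhibitor, stood at -0.43 ± 0.25, and Map2k6, an activator of p38, at 0.32 ± 0.25 (limma adjusted p from 0.288 to 0.557 for these 4).

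Of 12 tested cofactors none passed (median 0.16). The corepressor gene Ncor1, through whose product class IIa deacetylases recruit Hdac3, stood at 0.58 ± 0.22, but its 2 other probes gave 0.015 and 0.025. The acetyltransferase gene Kat2b stood at 0.51 ± 0.21 and Hdac3 at -0.55 ± 0.23 (limma adjusted p from 0.269 to 0.308 for these 3).

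The 7 deacetylases outside class IIa did not pass either (median -0.35, 6 of 7 negative). Hdac8, a class I deacetylase of smooth muscle and other tissues, stood at -0.72 ± 0.23 (limma adjusted p = 0.217), with -0.24 on another probe. Hdac2 stood at -0.40 ± 0.23 and Hdac10 at 0.52 ± 0.23 (limma adjusted p = 0.437 and 0.327). Hdac3 belongs to this list too.

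**Figure D4:**
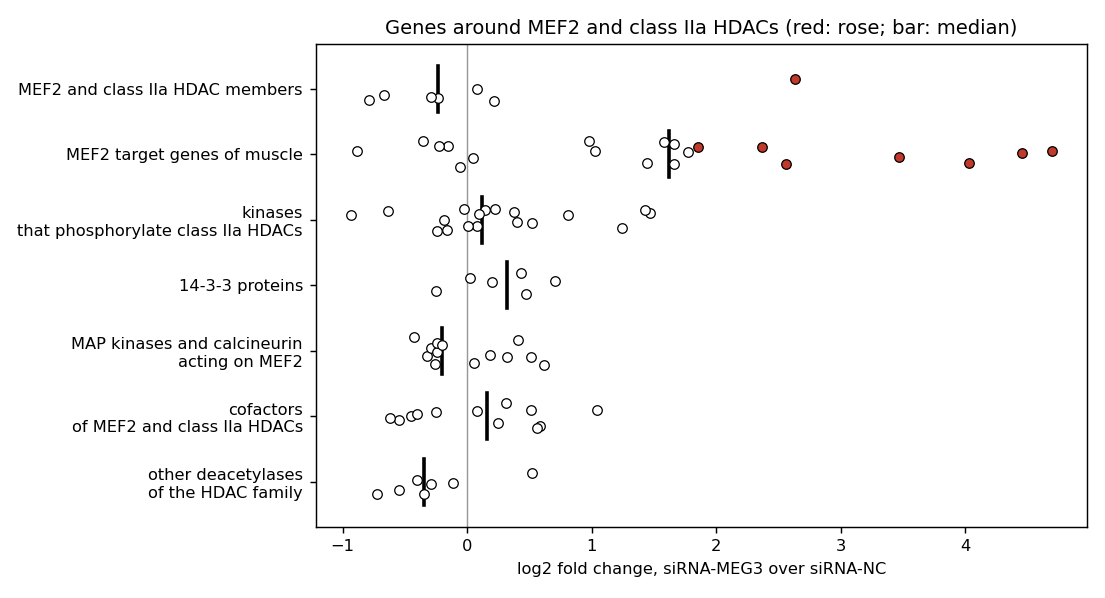
Log2 fold change (siRNA-MEG3 over siRNA-NC) of each tested gene by list, 1 point per gene from its brightest tested probe, with red points for genes that rose and a black bar for the median of the list. Points for the 7 MEF2 target genes that rose lie between 1.85 and 4.70 (Srpk3, the highest, at its fitted value), and 1 member, Hdac9, is red at 2.63.

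The 5 genes whose pattern over the 6 arrays was nearest to that of Hdac9 were sought among 13409 other genes well above background on every array, by Euclidean distance of log2 values centred on their mean. They were Hrc, which binds calcium inside the sarcoplasmic reticulum (distance 0.17), Pmaip1, a BCL2 family death gene (0.19), and Mctp1, a membrane protein with C2 domains (0.24). Next came Hhip, a hedgehog-binding protein, and Usp18, a protease that removes the ubiquitin-like ISG15 (both 0.27). Their log2 fold changes ran from 2.56 (Hrc) to 2.76 (Mctp1), and in each siRNA-NC array 2 was the lowest of the 6, as it was for Hdac9. Both likenesses follow from choosing the genes by distance over these same arrays, so they are no separate support. Hrc was also on the list of MEF2 targets.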

How the data were processed

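Per the file headers, the deposited scanner files come from Feature Extraction 11.0.1.1 (Agilent) and give for each spot a processed signal intensity, background-subtracted and detrended within the array. The authors' deposited table holds log2 values of 30732 probes (median 8.11 on every array, r with the log2 processed signal from 0.9991 to 0.9997). Per the labels, repeated probes were averaged and a normalization factor came from probes with intensities of at least 30 in all samples, and how it was applied is not stated.

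Control and outlier spots were left out, spots of a probe were averaged, and 27234 of 39429 probes were named through RefSeq accessions (GRCm38.p6). Each array was divided by its 75th percentile. Groups were compared by probe in R 4.3.3 with lmFit and eBayes of limma 3.58.1 (group as the only term, 2 residual and 2.31 prior degrees of freedom). After the main fit the limma step alone was run on simulated data with known changes, built on its probe means. Scaling, the background filter and the averaging of arrays were not part of that run. Normexp (offset 50) and 17 other settings were alternatives. Depth is signal over background, and precision is limited by the 2 samples per group.

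The members, lists and tests were chosen with earlier results of these data known. Named are the 8 members with every probe, the 4 genes of each list with the smallest p, and the 5 genes nearest to the member with the smallest p. 1 gene that this rule names is not reported here.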

Additional observations from a re-analysis of the deposited data

How the results depend on the processing

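Over 18 alternatives Hdac9 kept its direction in all and passed in 15, with log2 fold changes from 2.26 to 2.65. The 15 include fits with a lone siRNA-MEG3 sample, in which all member probes had the same SE. Those passes do not rest on the spread of Hdac9 itself. The main counts were 1 member probe higher and 0 lower, 262 probes higher and 95 lower over the array, and 7 pathway genes. With all 6 arrays as 6 samples, which counts near-identical arrays apart, 3 member probes were lower (both of Mef2a, adjusted p = 0.00637 and 0.0304, and the dimmer of Mef2d, 0.0165), with 4320 probes higher, 2616 lower and 27 pathway genes. With the replicate block added these were 2, 2176, 1447 and 16. The labels share only the replicate number (same-numbered arrays correlated at -0.038 to -0.029 in their deviations), and the block in the 4-sample fit gave Hdac9 an adjusted p of 0.0498 and 189 probes higher. The siRNA-MEG3 arrays as 1 sample gave 551 higher and 752 lower. Without a filter on dim probes limma called 0 members, 0 probes higher, 0 lower and 0 pathway genes (5273 probes at an unadjusted p below 0.05, 3 of them members). Without spots in dark patches 0 member probes were higher and 160 probes lower. Leaving out each array gave 0 to 1 member probe higher, 0 to 2 lower, 0 to 1373 and 0 to 1770 probes, and 0 to 12 pathway genes. The extremes came without siRNA-MEG3 array 2 and without siRNA-NC array 2, each of which leaves a lone sample in its group. Without siRNA-MEG3 array 2 all member probes had the same SE (0.54), so calls did not rest on each probe's own spread. The members counted as lower there, Mef2b and the dimmer Mef2d probe, were not well above background on the remaining siRNA-MEG3 arrays, so no fold is given. Without siRNA-NC array 2, where no probe passed, the lone sample was assumed to vary like the other group. Without siRNA-NC array 1, 48 probes were lower. Mef2b changed sign with normexp (0.25) and without dark patches (0.26), and the brighter Mef2d probe with quantile normalization (-0.066), in the authors' table (-0.11) and over left-out arrays (-0.15 to 0.11), and the cause was not tested. Of 160 values of member probes, 145 kept direction and side of the threshold. Normexp moved the median of all probes to 0.17, against 0.048. Dim signals limit Mef2b, Mef2c and the dimmer Mef2d probe.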
